A study of Mus musculus with 12 samples.

Results

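In MEC cells, a mouse endothelial line of embryonic origin, 47 of 8267 named genes were higher after 4 h of BMP6 and near their control level again by 24 h. They were selected by their measured values. A gene entered when its 4 h value exceeded the control value of the same title number by at least 0.25 on the log2 scale in all 3 pairs, and its mean difference at 24 h lay between -0.2 and 0.2. Of 67 genes that met both conditions, 20 were left out by name (26 names were set aside in all), which left 47. The series held 12 two-colour arrays in 4 groups of 3: mock-treated cells, whose time of harvest the labels do not give, and cells given BMP6 for 4, 12 or 24 h. All groups came from the same cell line and each array carried its own culture's RNA in Cy5 against a universal mouse reference RNA in Cy3. The dose of BMP6 is not given in the sources used here.

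BMP6 is a secreted ligand of the TGF-beta superfamily. It joins type I and type II receptor kinases at the cell surface, which phosphorylate SMAD transcription factors that enter the nucleus. Genes that these factors bind directly, such as the Id genes, can stay high as long as the ligand is present. Other early genes follow kinase cascades and are turned off again by short-lived messages and by the feedback inhibitors they encode. The series title concerns cyclooxygenase 2 and prostanoids in the response to BMP6, and the comparison of each time with control asks which transcripts take part and for how long.

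Every level below is a log2 ratio of the cells to the reference RNA, and triples of values follow title numbers 1, 2 and 3. Errors of differences are SDs over the 3 pairs. Neither the log base nor the sign of the deposited values is stated, and they were read as log2 of cells over reference. With the opposite sign each gene called higher here would be lower. Probes were joined to values by a grid order that no source states. Under that order the first 2 probes of a gene correlated at r = 0.471 over 1831 genes, against 0.021 in the deposited order (genes are not independent replicates). Of the 13 endothelial markers set for the check of the cell type, 5 were measured, and 0 of them lay above 0 in control cells (median -1.25, with Pecam1 at -1.42 and Cdh5 at -1.62). The arrays therefore do not show these cells above the universal mouse reference RNA for those markers. None of the 5 markers, and none of the 12 measured markers of mesenchymal, epithelial and blood cells, is among the 47 genes.

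At 4 h the differences of the 47 genes ran from 0.29 to 0.75, with a median of 0.466. The same value over all named genes was -0.006. At 12 h the median of the 47 had come down to 0.129 (-0.002 over all named genes) and at 24 h to 0.055 (-0.005). The 4 h and 24 h values chose the genes, and they are given as a description. The 12 h arrays had no part in the choice, but the controls they are set against did. Pair 2 gave the largest 4 h difference in 37 of the 47 genes and pairs 1 and 3 in 5 each, with medians over the genes of 0.350, 0.585 and 0.402 for pairs 1, 2 and 3. The lowest control array was number 1 in 21 genes, number 2 in 21 and number 3 in 5. What sets pair 2 apart was not tested.

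**Figure D1:**
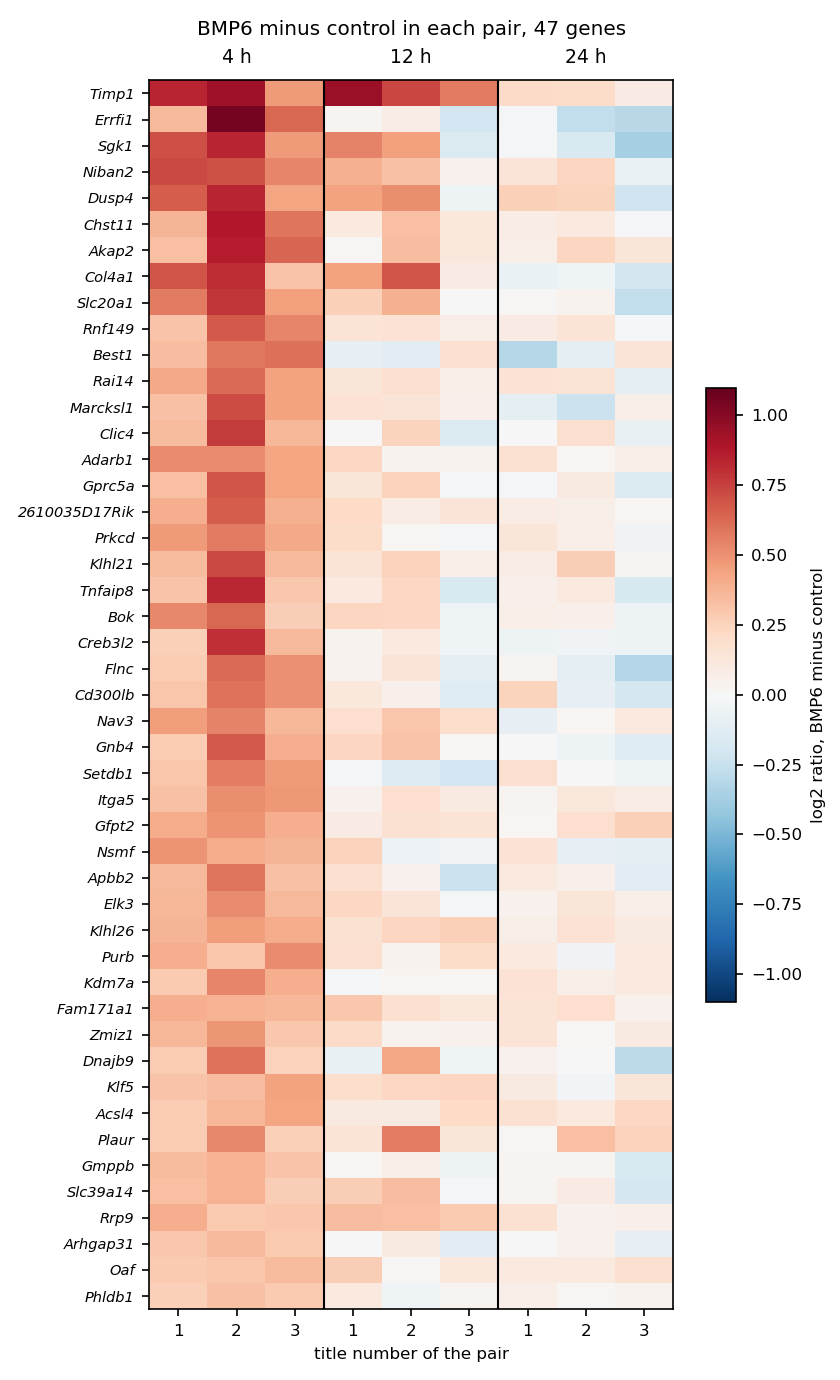
Colour gives the log2 ratio of BMP6 minus control for each of the 47 genes (rows, ordered by mean 4 h change) in each pair of arrays with the same title number (columns 1 to 3 within 4, 12 and 24 h), red for higher and blue for lower. The 4 h columns are red in every row because the rule required it, and the colour fades to a median of 0.129 at 12 h and 0.055 at 24 h.

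Promoter sequences from RefSeq (build GRCm38.p6, 250 bases before to 50 after an annotated start) were found for 36 of the 47 genes, with 50 promoters in all. Shown here are 4 promoters from the 24 genes with the largest 4 h change, with the matches in capitals on either strand. They were picked for the most kinds of a fixed set of 10 motifs, 3 for Prkcd and 2 for the others. Equal counts were ordered by larger 4 h change, and 1 promoter was taken per gene. Other promoters of these genes, not shown, held further motifs of the set. Prkcd, the delta isoform of protein kinase C, holds 3 GGCGCC matches, the GC-rich element bound by BMP-activated SMADs, a CACGTG E-box and, at position -244 from the annotated start, the TATA box letters TATAAA. Errfi1, a feedback inhibitor of the EGF receptor, holds a TGACGTCA cyclic AMP response element and a TATAAA that begins at position -28. Sgk1, the serum- and glucocorticoid-inducible kinase, holds an E-box and a TEAD motif (GGAATG, here as its reverse complement). Slc20a1, a sodium-dependent phosphate transporter, holds 2 E-boxes and a TATAAA that begins at position -1, at the annotated start itself.
Prkcd, chr14:30626159-30626458, minus strand: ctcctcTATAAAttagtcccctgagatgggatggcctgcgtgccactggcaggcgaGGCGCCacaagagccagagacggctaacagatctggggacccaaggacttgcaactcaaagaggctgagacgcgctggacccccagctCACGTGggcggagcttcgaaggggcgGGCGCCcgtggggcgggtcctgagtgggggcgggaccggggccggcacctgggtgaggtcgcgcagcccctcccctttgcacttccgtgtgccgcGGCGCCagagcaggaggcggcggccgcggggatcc
Errfi1, chr4:150854820-150855119, plus strand: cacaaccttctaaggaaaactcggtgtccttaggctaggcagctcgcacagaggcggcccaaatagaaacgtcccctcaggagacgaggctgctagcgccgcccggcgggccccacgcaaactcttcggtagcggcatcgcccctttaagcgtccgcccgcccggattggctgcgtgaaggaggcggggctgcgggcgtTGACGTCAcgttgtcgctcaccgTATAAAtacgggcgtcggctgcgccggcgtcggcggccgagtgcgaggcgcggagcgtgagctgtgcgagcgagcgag
Sgk1, chr10:21993640-21993939, plus strand: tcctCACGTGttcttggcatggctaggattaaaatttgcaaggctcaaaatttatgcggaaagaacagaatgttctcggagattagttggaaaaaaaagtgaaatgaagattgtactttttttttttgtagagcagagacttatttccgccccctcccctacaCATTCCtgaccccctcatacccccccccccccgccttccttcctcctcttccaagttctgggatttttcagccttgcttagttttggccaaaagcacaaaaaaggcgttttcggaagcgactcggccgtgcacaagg
Slc20a1, chr2:129198523-129198822, plus strand: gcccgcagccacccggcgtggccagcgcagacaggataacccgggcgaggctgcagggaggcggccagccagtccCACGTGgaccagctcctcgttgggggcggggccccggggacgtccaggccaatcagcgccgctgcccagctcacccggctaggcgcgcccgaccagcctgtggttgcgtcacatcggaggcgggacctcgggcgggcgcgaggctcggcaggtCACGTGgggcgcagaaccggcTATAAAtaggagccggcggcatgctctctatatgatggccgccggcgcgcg

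Over the 50 promoters, which belong to 36 of the 47 genes, GGCGCC was found in 24%. It was in 20.7% of 8620 promoters of named array genes and 11.9% of all 32851 promoters of the same length. GGAATG was found in 20%, against 12.4% and 14.7%, and TATAAA in 18%, against 7.43% and 13.6%. The E-box was in 8%, against 10.3% and 7.15%, the cyclic AMP response element in 4%, against 2.89% and 1.79%, and the AP-1 motif TGANTCA in 6%, against 5.34% and 7.81%. The antioxidant response element TGACNNNGC stood in 10%, against 13.9% and 12.4%, and the kappaB motif in 2%, against 5.06% and 4.51%. The palindromic SMAD element GTCTAGAC and the CArG box bound by SRF were in 0 of the 50, against 0.290% and 1.37% of promoters of array genes. Each motif was read on both strands, and several promoters can belong to 1 gene. The median GC content was 64.2% for the 50 promoters and 60.7% for promoters of array genes. These are matches of letters in a short window, and no test was made of them.

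Among secreted, matrix and surface proteins (8 of the 47 genes) the 4 h differences ran from 0.31 to 0.75. Chst11 is counted with them as an enzyme that modifies chondroitin chains, not as a secreted, matrix or surface protein itself. Timp1, a secreted inhibitor of matrix metalloproteinases, had the largest mean change of all. Its log2 level was 1.89, 1.82 and 2.4 in control cells and 2.72, 2.76 and 2.86 at 4 h. At 12 h the Timp1 level was 2.82, 2.56 and 2.97, and at 24 h 2.09, 2.03 and 2.49. All 4 h and 12 h arrays lay above all control arrays, and the 24 h arrays lay among the controls apart from number 3. The change was 0.75 ± 0.25 (SD, n = 3), or 1.68-fold, at 4 h and 0.75 ± 0.18 at 12 h. A second probe on the array, which the annotation gives to the human TIMP1 sequence, was 0.54 higher at 4 h, 0.64 at 12 h and 0.23 at 24 h. That last value put it just outside the 24 h limit, so it is not one of the 47.

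Col4a1, a chain of the type IV collagen of basement membranes, had control levels of -1.23, -0.73 and -0.53 and 4 h levels of -0.54, 0.09 and -0.21. Its levels were -0.79, -0.04 and -0.43 at 12 h and -1.31, -0.77 and -0.72 at 24 h. Within every number the 4 h value was the highest, while across numbers the groups overlapped, since control number 3 lay above 4 h number 1. The mean change was 0.61 ± 0.26 at 4 h (1.52-fold) and 0.41 ± 0.3 at 12 h. Chst11, a sulfotransferase that modifies chondroitin chains, went from log2 levels of 0.1, 0.08 and 0.28 in controls to 0.47, 0.96 and 0.87 at 4 h, then 0.2, 0.41 and 0.39 at 12 h and 0.18, 0.19 and 0.27 at 24 h. Its 3 arrays at 4 h lay above all controls.

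Gprc5a, an orphan G protein-coupled receptor, stood at 0.11, 0.17 and 0.3 on the control arrays and 0.44, 0.87 and 0.74 on the 4 h arrays (log2 levels), with no overlap. It was at 0.24, 0.43 and 0.29 at 12 h and 0.1, 0.28 and 0.15 at 24 h, close to the controls. Cd300lb, a receptor of myeloid cells, had log2 levels of -0.37, 0.13 and 0.13 in controls, -0.07, 0.73 and 0.64 at 4 h, -0.25, 0.19 and 0.004 at 12 h and -0.12, 0.04 and -0.06 at 24 h. Array number 1 was the lowest of every group, so that the 4 h and control groups overlapped although each pair differed by 0.3 or more. The remaining 3 genes of this role changed less: Itga5, the alpha chain of the main fibronectin receptor, by 0.44 ± 0.1, Plaur, the receptor of urokinase, by 0.36 ± 0.15, and Oaf, a secreted protein, by 0.31 ± 0.03 at 4 h. Plaur is the one nearest the upper 24 h limit, with 0.28 ± 0.24 at 12 h and 0.2 ± 0.17 at 24 h.

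Signalling proteins were the most numerous role, with 10 genes and a median 4 h difference of 0.548. Errfi1 had log2 levels of -1.24, -1.29 and -1.02 in control cells and -0.88, -0.24 and -0.39 at 4 h. It was back at -1.21, -1.21 and -1.24 at 12 h and lay at -1.25, -1.56 and -1.33 at 24 h. The 4 h arrays stood clear of all the others, with pair 2 the largest. The change of 0.68 ± 0.35 at 4 h (1.60-fold) had a counterpart of -0.04 ± 0.16 at 12 h and -0.2 ± 0.16 at 24 h. Dusp4, a phosphatase that inactivates MAP kinases in the nucleus, had levels of 0.28, 1.07 and 1.4 in controls, 0.95, 1.91 and 1.84 at 4 h, 0.73, 1.58 and 1.35 at 12 h and 0.54, 1.31 and 1.18 at 24 h. Number 1 was the lowest array of each group by a wide margin, and the groups overlapped across numbers. Within numbers the Dusp4 difference was 0.65 ± 0.2 at 4 h.

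Sgk1 lay at log2 levels of -0.72, -0.18 and 0.18 in controls and -0.01, 0.65 and 0.64 at 4 h. It lay at -0.17, 0.27 and 0.02 at 12 h and -0.73, -0.35 and -0.19 at 24 h. Again number 1 was low in each group, control number 3 overlapped with the 4 h group, and in every number the 24 h array was under its own control. The Sgk1 change was 0.67 ± 0.19 at 4 h (1.59-fold) and -0.18 ± 0.18 at 24 h. Prkcd spread much less: its levels were 0.06, 0.03 and 0.13 in controls, 0.53, 0.61 and 0.55 at 4 h, 0.26, 0.06 and 0.11 at 12 h and 0.19, 0.11 and 0.1 at 24 h. The 4 h arrays lay within a narrow band above all the others, with a change of 0.48 ± 0.08.

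Niban2, a phosphoprotein tied to ERK signalling, was measured by 2 probes. Its averaged log2 levels were 0.91, 1.02 and 1.35 in controls, 1.64, 1.71 and 1.89 at 4 h, 1.31, 1.34 and 1.4 at 12 h and 1.05, 1.25 and 1.28 at 24 h. The 4 h arrays did not overlap with any other group, and the probes gave 4 h changes of 0.61 and 0.70. Akap2, an anchoring protein for protein kinase A, had levels of 0.29, 0.59 and 0.63 in controls, 0.63, 1.45 and 1.27 at 4 h, 0.31, 0.93 and 0.76 at 12 h and 0.37, 0.83 and 0.76 at 24 h. Its pair 1 differed by 0.33, and the 4 h array of that pair lay within the control range, while pairs 2 and 3 differed by 0.86 and 0.64. The remaining signalling genes were the G protein subunit Gnb4 (0.45 ± 0.2 at 4 h), the nuclear messenger Nsmf (0.43 ± 0.06), the amyloid precursor adaptor Apbb2 (0.42 ± 0.14) and the Cdc42 and Rac inhibitor Arhgap31 (0.31 ± 0.04).

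**Figure D2:**
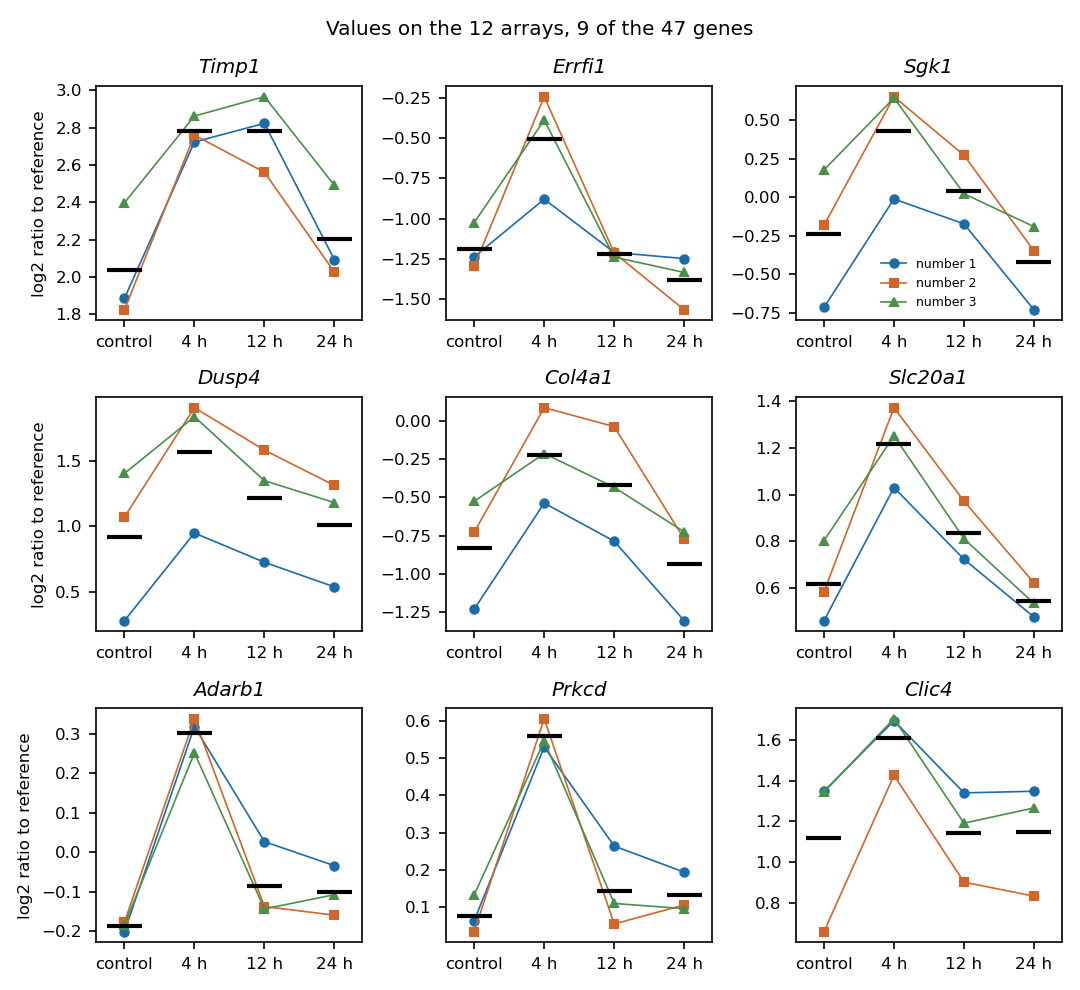
Points give the log2 ratio to the reference on each of the 12 arrays for 9 of the 47 genes, by group (horizontal axis) and title number (colour and symbol), with black bars at the group means of 3 arrays and a separate vertical scale in each panel. Lines join arrays of the same number: they peak at 4 h in all panels except that of Timp1, where numbers 1 and 3 are highest at 12 h.

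Cytoskeletal proteins contributed 5 genes. Rai14, an actin-binding ankyrin repeat protein, had log2 levels of 1.08, 1.21 and 1.41 in controls, 1.49, 1.84 and 1.85 at 4 h, 1.21, 1.39 and 1.47 at 12 h and 1.23, 1.36 and 1.29 at 24 h. All 3 arrays at 4 h were above every control array. Marcksl1, a membrane-bound regulator of actin, lay low on the array, at -1.19, -1.56 and -1.5 in controls, -0.87, -0.84 and -1.06 at 4 h, -1.03, -1.41 and -1.44 at 12 h and -1.28, -1.79 and -1.43 at 24 h (log2 levels). The 4 h group did not overlap with the controls. Flnc, the filamin C crosslinker of actin, had levels of 0.15, 0.14 and 0.41 in controls, 0.43, 0.77 and 0.92 at 4 h, 0.19, 0.29 and 0.31 at 12 h and 0.18, 0.04 and 0.09 at 24 h. Its lowest 4 h array was just above its highest control array. Nav3, a microtubule-associated protein, changed by 0.46 ± 0.09 at 4 h and Phldb1, a protein of the cell cortex, by 0.29 ± 0.03, the smallest mean change of the 47.

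Of the 4 channels and transporters, Slc20a1 had log2 levels of 0.46, 0.58 and 0.8 in controls, 1.03, 1.37 and 1.25 at 4 h, 0.72, 0.97 and 0.81 at 12 h and 0.48, 0.62 and 0.53 at 24 h. The 4 h arrays were the highest 3 of the 12, with a change of 0.6 ± 0.17 (1.52-fold). Clic4, an intracellular chloride channel protein that takes part in the forming of endothelial tubes, had levels of 1.35, 0.66 and 1.34 in controls, 1.7, 1.43 and 1.71 at 4 h, 1.34, 0.9 and 1.19 at 12 h and 1.35, 0.83 and 1.27 at 24 h. Number 2 was the low array of every group, and pair 2 gave the largest difference. Best1, a calcium-activated chloride channel, had the lowest control level of the 47: -1.44, -1.74 and -2.25, then -1.1, -1.16 and -1.64 at 4 h, -1.53, -1.86 and -2.07 at 12 h and -1.75, -1.84 and -2.11 at 24 h. Here number 3 was low in all groups and the groups overlapped across numbers. Slc39a14, a zinc and iron transporter, changed by 0.33 ± 0.05 at 4 h and 0.2 ± 0.19 at 12 h.

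Nuclear and RNA proteins made up 9 genes, with 4 h differences from 0.33 to 0.49. Adarb1, an enzyme that converts adenosine to inosine in double-stranded RNA, had almost no spread among controls, at log2 levels of -0.2, -0.18 and -0.18. It was at 0.32, 0.34 and 0.25 at 4 h, 0.03, -0.14 and -0.14 at 12 h and -0.03, -0.16 and -0.11 at 24 h. Both of its probes differed by 0.40 or more in every pair, and the mean change was 0.49 ± 0.05. Creb3l2, a transcription factor held in the endoplasmic reticulum membrane until it is cleaved, had levels of 0.1, -0.07 and 0.29 in controls, 0.36, 0.73 and 0.65 at 4 h, 0.15, 0.04 and 0.25 at 12 h and 0.05, -0.1 and 0.24 at 24 h. The lowest 4 h array lay just above the highest control array, and pair 2 was the largest. The ETS factor Elk3 changed by 0.41 ± 0.09, the zinc finger factor Klf5 by 0.36 ± 0.07, the coactivator Zmiz1 by 0.38 ± 0.1 and the single-strand DNA binding repressor Purb by 0.41 ± 0.11 at 4 h. The histone modifiers Setdb1, which methylates histone H3, and Kdm7a, a histone demethylase, changed by 0.44 ± 0.13 and 0.41 ± 0.13 at 4 h. At 12 h they stood at -0.13 ± 0.1 and 0.01 ± 0.02. Rrp9, a protein of the U3 ribonucleoprotein that processes ribosomal RNA, changed by 0.33 ± 0.06 at 4 h and 0.32 ± 0.03 at 12 h.

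Of the smaller roles, 3 genes were ubiquitin ligase proteins and 2 cell death proteins. Among ubiquitin ligase proteins, Rnf149 had log2 levels of -0.16, 0.04 and -0.05 in controls, 0.15, 0.71 and 0.48 at 4 h, -0.01, 0.2 and 0.02 at 12 h and -0.07, 0.19 and -0.07 at 24 h. Its 4 h arrays lay above all controls. Klhl21, an adaptor of the cullin 3 ligase, had levels of 0.15, 0.38 and 0.44 in controls, 0.5, 1.11 and 0.8 at 4 h, 0.3, 0.64 and 0.51 at 12 h and 0.23, 0.65 and 0.47 at 24 h, and its relative Klhl26 changed by 0.41 ± 0.04 at 4 h. In Klhl21, too, the 4 h and control groups did not overlap. Bok, a member of the Bcl-2 family, had levels of 1.36, 1.04 and 1.4 in controls, 1.89, 1.67 and 1.66 at 4 h, 1.59, 1.27 and 1.35 at 12 h and 1.43, 1.1 and 1.34 at 24 h, and the 4 h arrays lay above all controls. For Tnfaip8, a TNF-induced regulator of cell death, the levels were -0.16, -0.5 and 0.15 in controls, 0.15, 0.33 and 0.45 at 4 h, -0.05, -0.28 and -0.01 at 12 h and -0.1, -0.4 and -0.02 at 24 h. Control number 2 was low, pair 2 differed by 0.83, the other pairs differed by 0.31 and 0.29, and the lowest 4 h array lay just under the highest control array.

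Of enzymes and chaperones, Gfpt2, which opens the hexosamine pathway, changed by 0.43 ± 0.05, the endoplasmic reticulum co-chaperone Dnajb9 by 0.38 ± 0.19, the arachidonate-activating enzyme Acsl4 by 0.36 ± 0.08 and the GDP-mannose synthase Gmppb by 0.35 ± 0.04 at 4 h. Gmppb was at 0.01 ± 0.06 at 12 h. No role is given here for 2610035D17Rik and the membrane protein Fam171a1. The former had log2 levels of -0.36, -0.62 and -0.46 in controls, 0.03, 0.05 and -0.07 at 4 h, -0.14, -0.53 and -0.32 at 12 h and -0.28, -0.55 and -0.44 at 24 h, with no overlap between the 4 h and control groups. Fam171a1 changed by 0.38 ± 0.02, the smallest SD over pairs among the 47.

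In 38 of the 47 genes the lowest 4 h array lay above the highest control array, and in 9 the groups overlapped across title numbers although each pair differed. Over all named genes 3.81% were separated in this way, and the rule favours such genes by construction. The two-sided limma tests over 17971 features (8267 named genes and each row without a single gene name) called 2 of the 47 at 4 h (Adarb1 and Prkcd) against 0.0668% of features called in either direction and 0.0612% called higher. Title numbers were found to pair the arrays, and with them as a block 44 of the 47 were called against 1.0% of features called higher. The 3 exceptions were Cd300lb, Dnajb9 and Plaur. Both counts use the contrast that chose the genes, and nothing is read from them. Without 1 array at a time the unblocked count ran from 0 to 2, and the blocked count from 19 without control number 2, 20 without 4 h number 3 and 23 without 4 h number 2 up to 44.

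To set the 4 h difference against arrays that had not chosen the genes, the rule was applied to 2 of the 3 title numbers and read in the third. Without number 2, 55 genes were chosen, and 49 of them (89.1%) differed by at least 0.25 in pair 2, against 6.5% of all named genes. All 55 were above their control there, with a median of 0.572 (-0.0125 over all named genes). Without number 1, 112 genes were chosen and 43 (38.4%) reached 0.25 in pair 1, against 4.79%, with a median of 0.177. Without number 3, 139 genes were chosen and 46 (33.1%) reached it in pair 3, against 9.01%, with a median of 0.142. The share was above that of all named genes in each of the 3 pairs and lower where pair 2 had taken part in choosing. Most genes chosen without number 1 or number 3 did not reach 0.25 in the pair left out. Of the chosen genes, 42 without number 1, 47 without number 2 and 44 without number 3 are among the 47. Those reach 0.25 in every pair by the rule, so the shares largely recount them, and nothing further is read from the shares. The 3 choices share genes and arrays, and no test was made of them.

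**Figure D3:**
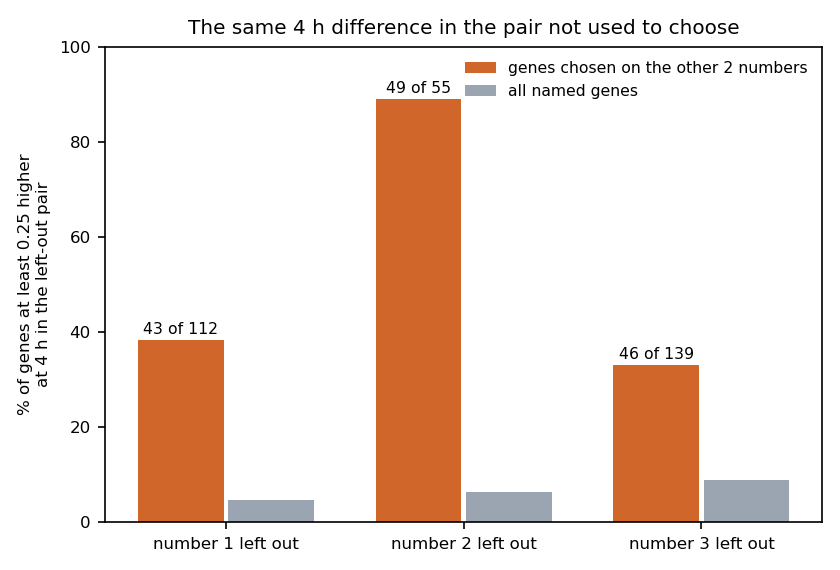
Bars give the percentage of genes at least 0.25 (log2) higher at 4 h than control in the pair left out of the choice, for genes chosen on the other pairs (orange, with their counts) and for all named genes (grey). The orange bars stand at 38.4%, 89.1% and 33.1% for pairs 1, 2 and 3, and the grey ones at 4.79%, 6.5% and 9.01%.

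In 44 of the 47 genes the 12 h array was below the 4 h array in all 3 numbers, against 19.1% of named genes. Genes chosen for high 4 h values are favoured to lie lower later, so this is a description. In the pair left out of the choice, the 12 h array was below the 4 h array in 94 of 112 genes in pair 1 (44.9% of all named genes), 52 of 55 in pair 2 (49.5%) and 107 of 139 in pair 3 (46.2%). The median differences from 4 h to 12 h there were -0.16, -0.38 and -0.15. Most of the 47 are among these chosen genes, so these values too are a description. Against the controls, which took part in the choice, the mean 12 h difference of the 47 was above 0 in 42 genes (49.3% of all named genes) and below 0 in 5, and 25 were above control in all 3 pairs at 12 h, against 14.7% of named genes. As a share of the 4 h change, the 12 h change had a median of 26.5%. It was under 25% in 17 genes, from 25% to 50% in 22 and at 50% or more in 8. The 8 were Timp1 (100%), Rrp9 (96.9%), Plaur (78.3%), Col4a1 (67.3%), Klf5 (59.9%), Slc39a14 (59.9%), Klhl26 (54.2%) and Fam171a1 (51.2%). The genes below control on average at 12 h were Setdb1 (-0.13 ± 0.1), Errfi1 (-0.04 ± 0.16), Best1 (-0.01 ± 0.16), Apbb2 (-0.01 ± 0.21) and Arhgap31 (-0.01 ± 0.11), and of these Setdb1 alone was below control in all pairs, as were 17.5% of named genes.

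**Figure D4:**
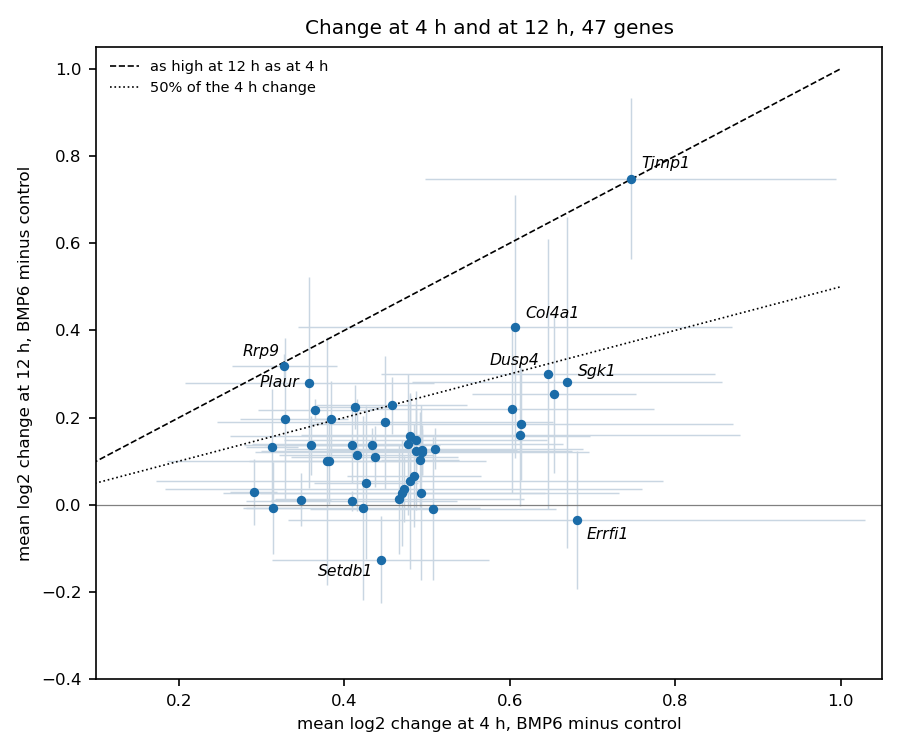
Each point is 1 of the 47 genes, at its mean log2 change at 4 h (horizontal axis) and at 12 h (vertical axis), with SDs over 3 pairs as light bars. Timp1 and Rrp9 lie on or near the dashed line of equal change, 8 genes lie above the dotted line of 50%, and Errfi1 and Setdb1 lie below 0 at 12 h.

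Tests against control at 12 h share the control arrays with the rule, so their calls too are a description. Without a block, limma called 0 of the 47 at 12 h and 0 of 17971 features, while 7 of the 47 and 3.21% of features had an unadjusted p under 0.05, and the methods' t-test found 4 of the 47 and 2.89% of features. With the replicate block 2 of the 47 were called, against 0.128% of features called higher. These were Timp1 (log2 change 0.75, SE 0.09, limma adjusted p 0.00886, 0.645 unblocked) and Rrp9 (0.32, SE 0.05, limma adjusted p 0.0266, 1.0 unblocked), each above control in 3 of 3 pairs. The Timp1 call was lost without control number 2 or 12 h number 1 or 2. The Rrp9 call was lost without control number 1 or 2, any of the 12 h arrays, or 24 h number 2 or 3, and Dusp4 was called without control number 3. In the pairs left out of the choice, 12 h minus control was above 0 in 58.9% of 112 genes in pair 1 (55.3% of all named genes), 87.3% of 55 in pair 2 (46.96%) and 47.5% of 139 in pair 3 (45.4%). Most of the 47 are among these chosen genes, and the controls of every pair took part in choosing the 47. Nothing further is read from these shares.

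At 24 h the rule held every mean between -0.197 and 0.197. Of the 47 genes, 17 were above control in all 3 pairs (13.7% of named genes were), 5 below in all 3 (14.6% of named genes were) and 25 mixed. Limma called 0 of the 47 at 24 h, with or without the block (0.0223% of features with the block in either direction, 0.0167% higher). An unadjusted limma p under 0.05 was found for 5 of the 47 with the block (7.82% of features) and 0 without it (2.03%). The rule had bounded the 24 h means of the 47, so these counts and calls are a description. In the choice without number 2, 44 of 55 genes (80%) lay within 0.2 of control in pair 2 at 24 h, against 85.8% of all named genes. In the choices without numbers 1 and 3 the counts were 92 of 112 (82.1%, against 89.8% of all) and 103 of 139 (74.1%, against 82.7% of all). The median 24 h differences there were 0.029, 0.046 and -0.097 in pairs 1, 2 and 3 (0.02, -0.006 and -0.018 over all named genes). In each left-out pair the share within 0.2 was high but below that of all named genes. Most of the 47 are among the chosen genes here too, so nothing further is read from these shares. A value within 0.2 of control is what most genes on the array show at 24 h: 95.5% of named genes had a mean difference inside that limit.

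Of 87 named genes (1.05%) at least 0.25 higher in all 3 pairs at 4 h, the 67 inside the 24 h limit made up 77.0%, 18 lay above it and 2 below. Nearest inside the pair limit were Dnajb9, Creb3l2 and Phldb1, with smallest pair differences of 0.253, 0.259 and 0.263, and nearest outside were Nmnat2, Hk2 and Cttnbp2nl at 0.246, 0.246 and 0.243. At the upper 24 h limit, Plaur, Timp1 and Acsl4 were inside at 0.197, 0.168 and 0.167, and the human TIMP1 probe, Dlx1 and Cep295 outside at 0.231, 0.241 and 0.248. At the lower limit, Errfi1, Sgk1 and Flnc were inside at -0.197, -0.183 and -0.133, and Fam110c and Ccl2 outside at -0.203 and -0.209. The limits thus part genes whose values differ by less than the SD over pairs.

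Each of the 10 genes with 2 probes was above control in every pair on both probes. The rule used the average of these same probes, so this is favoured by construction. The 0.25 limit was met in every pair by 13 of the 20 probes. The probes agreed closely for Adarb1 (4 h changes of 0.48 and 0.50). They had the same mean for Acsl4 (0.36 and 0.36) but different pairs, and they differed for Nav3 (0.72 and 0.20) and Itga5 (0.68 and 0.19). The other 37 genes rest on 1 probe each. In control cells the 47 genes ranged from -1.81 to 2.04 with a median of 0.121, and 28 of them lay above 0, against 52.3% of all named genes (median 0.031).

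The 20 genes left out by name, among them Ccn2, Dusp6, Myc and Hmox1, were subject to the same conditions: their median changes were 0.527 at 4 h, 0.118 at 12 h and 0.040 at 24 h, and at 12 h they kept a median of 25.7% of the 4 h change. With the conditions mirrored, 52 genes were lower at 4 h and back within the limit at 24 h. Their medians were -0.438 at 4 h, -0.285 at 12 h and -0.105 at 24 h, and 38 of the 52 kept 50% or more of the 4 h change at 12 h, against 8 of the 47. These sets share their control arrays, and the difference between them was not tested.

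Of the 47 genes, 2 belong to gene lists drawn up for early responses and for the tissue. These lists were made without the 26 names set aside, which include early-response genes such as Ccn2, Dusp6 and Myc, so the low count partly follows from that choice. The medians and calls of the lists below lack the same names. Of the 26, the 20 that met both conditions had a median 4 h change of 0.527. The lists therefore do not describe their pathways as a whole. None of the 17 measured immediate early genes, 16 BMP and SMAD targets, 20 SRF and YAP targets, 18 NF-kappaB and cytokine genes, 8 cyclic AMP targets, 17 Wnt pathway genes or 11 growth arrest genes is among them. Dusp4 is 1 of 11 measured ERK feedback genes and Plaur 1 of 27 vascular growth factors and receptors. The median 4 h difference was 0.104 for immediate early genes, 0.084 for SRF and YAP targets, 0.082 for ERK feedback genes, 0.071 for vascular factors and 0.068 for BMP targets. It was 0.027 for NF-kappaB and 0.005 for cyclic AMP genes. It was -0.042 for Wnt genes, -0.047 for other cell markers, -0.082 for endothelial genes and -0.091 for growth arrest genes, against -0.006 over all named genes. In the unblocked fit only Wnt2 passed at 4 h among these lists (1.41, SE 0.18, limma adjusted p 0.018). In the blocked fit (2.37% of features called), 5 of 16 BMP targets rose, 2 of 17 immediate early genes (Ier3 by 0.52 and Csrnp1 by 0.29) and 2 of 11 ERK feedback genes (Dusp4 and Phlda1, the latter by 0.51). Of the other lists, 1 of 8 cyclic AMP targets rose (Ereg) and 1 fell (Pde3b), 1 of 27 vascular genes rose (Epha2) and 1 fell (Vegfd), and 1 of 17 Wnt genes rose (Wnt2). Of 20 SRF and YAP targets 1 fell (Filip1l), of 11 growth arrest genes 2 fell (Sesn1 and Gas1), of 12 other cell markers 1 fell (Prrx1), and 0 of 18 NF-kappaB genes and 0 of 5 endothelial genes were called. The BMP targets Id1, Id2 and Id3, inhibitors of differentiation factors, rose in the blocked fit at each time, by 0.975, 0.84 and 0.64 at 4 h and by 1.07, 1.19 and 0.92 at 24 h (limma adjusted p 0.00639, 0.0295 and 0.00639 at 24 h, 1.0 each unblocked). Of the 47 genes the largest mean at 24 h was 0.197. The rule admitted no gene with a 24 h mean above 0.2, so nothing is read from that contrast.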

How the data were processed

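Gene expression was measured on 12 two-colour Agilent oligonucleotide arrays. Per the series' design text, images were quantified in GenePix Pro and the authors applied their own variant of quantile normalization. The deposited values were read as log2 ratios of cells (Cy5, per the labels) to reference (Cy3). Spot detection is unknown, and precision is limited by how many arrays there are. Groups and numbers came from the sample titles. The design text calls the triplicates independent biological replications but does not say what same-numbered arrays share.

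The platform annotation lists 11083 probes, 10576 of them with 1 symbol. Of these symbols, 10548 were updated through gene identifiers and 28 kept. The 507 with several symbols and the 9197 rows without a name stayed unnamed. Probe numbers were placed on the grid of 22575 positions by the order given with the rule. Probes of a gene were averaged. The two-sided tests were made with limma's lmFit and eBayes (version 3.58.1, R version 4.3.3) over all 12 arrays, with Benjamini-Hochberg adjusted p under 0.05 over 17971 features. The fit was tested on simulated data. Same-numbered arrays of different groups deviated together (18 correlations from 0.443 to 0.695, others from -0.564 to 0.069, limit 0.1), so the numbers pair the arrays and a blocked fit is given.

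The members, the lists and the tests were chosen with earlier results of these data known. Named in full are the 24 genes with the largest mean 4 h change. Also named are the 3 genes on each side of each limit, list members, and the remaining genes by role, with roles assigned after their names were seen. Promoters came from RefSeq (GRCm38.p6). Alternatives were other limits, centring, quantile normalization, other probe rules, the methods' t-test, 2-group fits, named genes alone and leaving out arrays. The blocked fits without single arrays were added after seeing the data.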

Additional observations from a re-analysis of the deposited data

Results flagged for a closer look

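In 6 results a gene lay above control in every pair at 4 h, as the rule required, and below control in every pair at a later time. At 24 h these were Errfi1 (mean difference -0.197), Sgk1 (-0.183), Col4a1 (-0.107), Gnb4 (-0.062) and Creb3l2 (-0.049). At 12 h it was Setdb1 (-0.126). Over all named genes 14.6% were below control in every pair at 24 h and 17.5% at 12 h. The rule bounded the 24 h means of the 47, and the control arrays took part in the choice. The shares are given as a description, and nothing is read from them. The difference between the times was not tested, since the 4 h direction was set by the choice of genes.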

How the results depend on the processing

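The number of genes meeting the rule, 47, was 81 with a pair limit of 0.2 (all 47 among them) and 84 without pairing, where the 4 h arrays had to lie above all controls (38 shared). It ran from 55 to 139 without 1 title number. Centring, quantile normalization, other 24 h limits, a pair limit of 0.3 and other probe rules gave 32 to 56. At 4 h, 12 of 17971 features and 2 of the 47 genes were called. With the replicate block, which pairs the arrays, the counts were 426 and 44. Under the methods' t-test and in the fit of 2 groups, each count was 0, while 767 and 678 features, and 33 and 43 of the 47 genes, which this contrast chose, had an unadjusted p under 0.05, and on centred arrays 1 of the 47 was called. Without single arrays the counts ran from 3 to 18 features and from 0 to 2 genes, and with the block from 19 to 44 genes (19, 20 and 23 without control number 2, 4 h number 3 and 4 h number 2). At 12 h, 0 features and 0 genes were called, 94 and 2 with the replicate block (0 to 3 genes without single arrays), and 1 feature after quantile normalization. At 24 h the block called 4 features against 0. The cause of these differences was not tested, apart from the fewer arrays or the smaller fit that some settings use by construction. The 12 h median moved by less than its SD over pairs. The left-out medians of pairs 1 and 2 stayed between 0.177 and 0.203 and between 0.523 and 0.572, and that of pair 3 went from 0.142 to 0.253 after quantile normalization. For the 24 genes named in full, 192 recomputed 4 h changes gave 0 changes of sign and 7 moves of over 1.5 times. Without control number 1, Sgk1 stood at 0.431, Dusp4 at 0.327 and Cd300lb at 0.299. Without control number 2, Clic4 stood at 0.263 and Tnfaip8 at 0.312, without control number 3 Best1 at 0.288, and without 4 h number 1 Cd300lb at 0.716. In genes measured by 1 probe, probe error and gene cannot be told apart.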

Other observations

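Of the 9704 rows with no single gene name, 27 (0.278%) met the same 4 h and 24 h conditions, against 0.810% of named genes before the exclusions. Their median change was 0.406 at 4 h and 0.177 at 12 h, and the largest at 4 h was 0.894. No gene is named for them here.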
